A study of Macaca mulatta with 6 samples.

Results

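The 24 genes described here are the mitochondrial tRNA and rRNA genes of the rhesus monkey in a small RNA count table of juvenile testis, taken as all genes with the annotation class Mt_tRNA or Mt_rRNA out of 3083 annotated small RNA genes. They are 22 tRNA genes and 2 rRNA genes on the mitochondrial chromosome (MT, build rheMac8). The table gave no names for them, so each was assigned by its place along MT, using the gene order that mammalian mitochondrial genomes share. The 2 rRNA genes fell in their places and the strand given in the table matched that order in 24 of 24 genes.

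The libraries came from whole right testis of 6 wild-type juvenile rhesus monkeys (Macaca mulatta), 1 library per animal. Vehicle was infused for 48 h into 3 animals (libraries vehicle 7, 9 and 11, from animals aged 24, 14 and 15 months). Pulses of gonadotropin, that is follicle-stimulating hormone with luteinizing hormone, were infused for 48 h into the other 3 (gonadotropin 8, 10 and 12, aged 22, 14 and 15 months). The series asks what gonadotropins do to small RNAs of the testis at the onset of puberty.

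Mitochondrial DNA is a small circle that is copied into RNA from both of its strands as long precursors. The tRNA genes sit between the rRNA genes and the protein genes, and cutting the tRNAs out of the precursor also frees their neighbours. The tRNAs and the rRNAs serve only the ribosomes inside mitochondria, which make core subunits of the respiratory chain. In the testis, mitochondria of Leydig cells carry out the first step of steroid synthesis under luteinizing hormone. A small RNA library reads these genes as short pieces and as whole tRNAs that pass size selection, so a count here is not a measure of intact rRNA. In whole tissue, fewer cells of a type and less RNA per cell cannot be told apart.

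Total counts ran from 2146412 to 3170784 per library, and the mitochondrial genes held 22035 to 42046 of them. miRNA genes held 91.9% to 96.9% of the counts. miRNA genes of the testis-rich miR-506 to miR-514 family and of the miR-34 and miR-449 germ cell family were detected in every library (8 genes, summed level 11252 to 16127 CPM in vehicle and 10970 to 21553 CPM in gonadotropin; CPM is the count divided by the TMM-scaled size of the library in units of 1000000 counts). The miR-34 and miR-449 genes were at only 3.41 to 43.7 CPM each, so nearly all of the sum came from the other family. Marker miRNAs of other cells were present as well. The blood list (7 of 7 genes tested, all with a higher value, of which 2 mir-144 genes had identical counts) summed to 2956 to 5914 CPM in vehicle and 4705 to 5114 CPM in gonadotropin, mostly from mir-451. Within it the myeloid mir-223 was at 308, 422 and 501 CPM with vehicle and at 521, 904 and 889 CPM with gonadotropin, with no overlap (log2 fold change 0.91, SE 0.37, adjusted p = 0.939, edgeR quasi-likelihood test). It was the only 1 of the 7 without overlap, a share that was 8.23% over all tested genes and 37 of 372 over miRNA genes. The endothelial miR-126 was at 4354 to 7475 and 5738 to 7074 CPM, the muscle list at 13363 to 23506 and 12904 to 21281 CPM, and the duct epithelium list at 29.7 to 102 and 36.8 to 65.4 CPM. The neural list was at 102 to 273 and 148 to 185 CPM, and the liver miR-122 was near 0, at 0.682 to 1.31 and 0.773 to 1.28 CPM. The neural sum takes the same values more than once: mir-124a-1, mir-124a-2 and MIR124-3 had identical counts, and mir-9-1, mir-9-2 and mir-9-3 nearly so. A single copy was at 18.4 to 30.9 CPM (mir-124a-1) and 15.7 to 60.1 CPM (mir-9-1) in vehicle. No gene of these lists passed the test, and their part in the mitochondrial values was not tested.

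One library stood apart in the mitochondrial genes. In gonadotropin 10 several tRNAs that were abundant in every other library were nearly missing, while tRNA-Gln alone made most of the mitochondrial counts. A count is of reads that the authors' alignment placed on a gene, and whether reads of these tRNAs went unplaced in that library was not tested. The main comparisons of the groups are given with and without that library.

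As a share of all counts, mitochondrial genes made 0.881%, 1.55% and 0.9% in vehicle 7, 9 and 11 and 1.77%, 0.845% and 1.01% in gonadotropin 8, 10 and 12. The exact Clopper-Pearson 95% intervals, which cover counting error only, were narrow beside these differences, for example 1.53% to 1.56% in vehicle 9 and 0.835% to 0.855% in gonadotropin 10. Each group held 1 library well above its other two, and the groups overlapped throughout. The difference of the mean log2 share, gonadotropin minus vehicle, was 0.10 (exact two-sided permutation test, p = 0.7, n = 3 each). It was 0.32 without gonadotropin 10 and -0.21 without gonadotropin 8 (p = 0.4 and 0.8, exact permutation tests). With 3 libraries against 3 the smallest p this test can give is 0.1.

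The level of single members differed widely. Per kilobase of gene and as the mean over the vehicle libraries, tRNA-Ser(AGY), which reads 1 of the 2 groups of serine codons and is a short tRNA that lacks the D arm, stood highest at 33548 CPM per kilobase. tRNA-Val (20735), tRNA-Gln (20313), tRNA-Phe (17239), tRNA-Lys (16619) and tRNA-Tyr (13015) followed on the same scale. The spread between vehicle libraries was 49.4% of the mean for tRNA-Ser(AGY), 80.6% for tRNA-Phe and 51.4% for tRNA-Tyr, so the order within this upper group was not resolved. The lowest tRNA genes were tRNA-Ser(UCN) at 251 and tRNA-Pro at 148 CPM per kilobase. The 16S rRNA (360) and the 12S rRNA (264) of the large and the small mitochondrial ribosome subunit lay among those low tRNAs on this scale. Counts of neighbours on the same precursor thus differed: tRNA-Val, at 1431 ± 235 CPM in vehicle (SD, n = 3), lies between the 12S and the 16S rRNA, at 250 ± 121 and 561 ± 147 CPM. As intact rRNA is not measured here, these values do not compare the amounts of the RNAs.

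**Figure D1:**
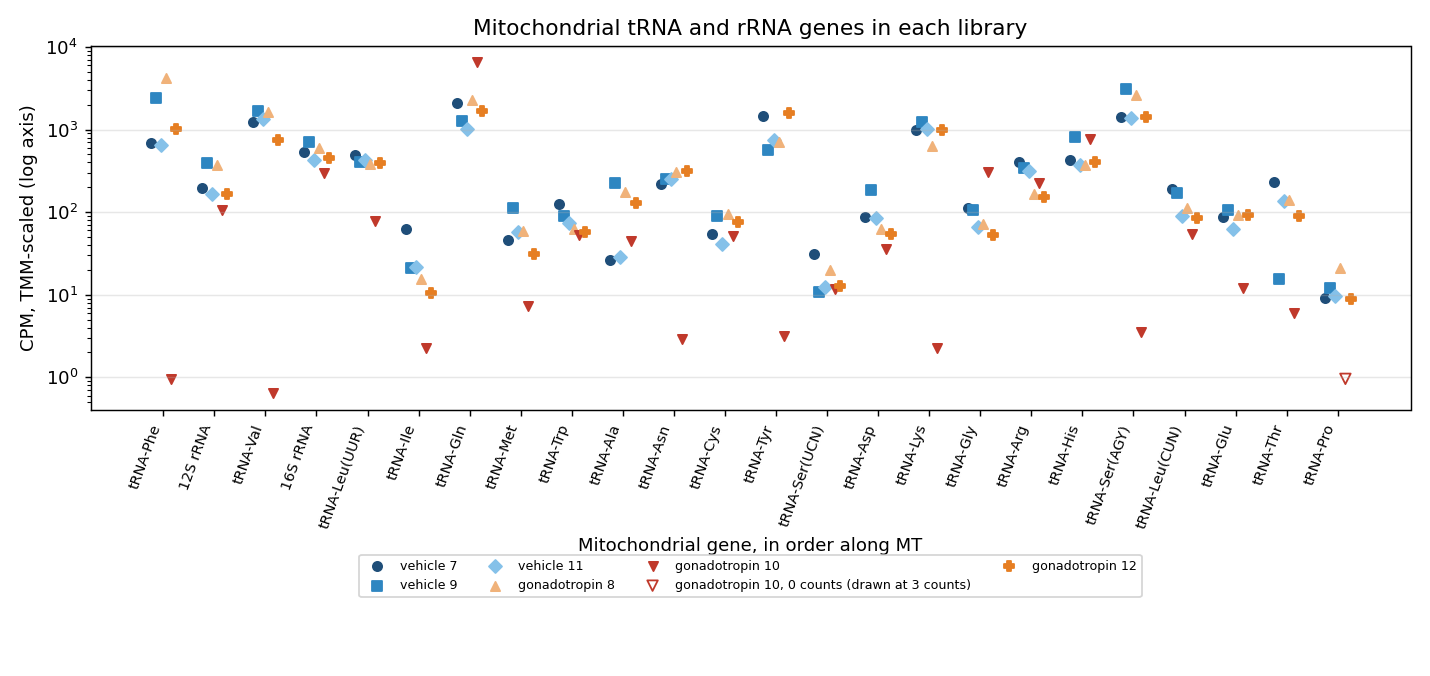
Level of each of the 24 mitochondrial genes in each library (TMM-scaled CPM, log axis; genes in order along MT; 1 marker per library; the open marker stands for 0 counts drawn at the level of 3 counts). The markers of gonadotropin 10 lie far under the others at tRNA-Phe, tRNA-Val, tRNA-Asn, tRNA-Tyr, tRNA-Lys and tRNA-Ser(AGY) and above the others at tRNA-Gln and tRNA-Gly.

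The genes at the start of the rRNA region lie end to end from tRNA-Phe (MT 536 to 607, plus strand) over the 12S rRNA (608 to 1554), tRNA-Val (1555 to 1623) and the 16S rRNA (1624 to 3181) to tRNA-Leu(UUR) (3182 to 3256). tRNA-Phe, the first gene read from the heavy-strand promoter, was at 681, 2396 and 647 CPM in vehicle 7, 9 and 11 and at 4263, 0.959 and 1020 CPM in gonadotropin 8, 10 and 12. Gonadotropin 8 thus held its highest level of all libraries and gonadotropin 10 its lowest, which was 3 counts. tRNA-Val was at 1249, 1696 and 1347 CPM with vehicle and at 1611, 0.639 and 753 CPM in gonadotropin, where 0.639 CPM stands for 2 counts. The rRNA genes on both sides of it were lowest in the same library, but mildly so. The 12S rRNA was at 195, 389 and 166 CPM with vehicle and at 369, 107 and 167 CPM in gonadotropin. The 16S rRNA was at 540, 717 and 425 CPM with vehicle and at 600, 297 and 454 CPM in gonadotropin. In both rRNAs vehicle 9 and gonadotropin 8 were the highest libraries, and the groups overlapped. The ratio of 16S to 12S counts was 2.77, 1.84 and 2.55 in vehicle and 1.63, 2.76 and 2.72 in gonadotropin, so the same 2 libraries also had the lowest ratios.

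tRNA-Leu(UUR), which follows the 16S rRNA, was the steadiest member outside gonadotropin 10: its highest level was 1.27 times its lowest over the other 5 libraries, against a median of 2.30 times and up to 14.6 times over all members. It lay between 406 and 487 CPM with vehicle and between 78.6 and 394 CPM in gonadotropin.

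The next group holds tRNA-Ile (MT 4214 to 4282, plus strand), tRNA-Gln (4280 to 4351, minus strand) and tRNA-Met (4353 to 4420, plus strand), the last serving both start and inner methionine codons in mitochondria. tRNA-Ile and tRNA-Gln share 3 bases on opposite strands, the only overlap among the members. tRNA-Gln was at 2096, 1279 and 1012 CPM with vehicle and at 2308, 6492 and 1681 CPM in gonadotropin. Gonadotropin 10 was 2.81 times over the next highest library. tRNA-Ile was at 61.9, 21.1 and 21.6 CPM with vehicle and at 15.6, 2.24 and 10.4 CPM in gonadotropin. Here all gonadotropin libraries lay under all vehicle libraries, and gonadotropin 10 was the lowest. tRNA-Met ranged from 46.6 to 113 CPM in vehicle and from 7.35 to 58.9 CPM in gonadotropin.

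Around the origin of light-strand replication lie tRNA-Trp on the plus strand and tRNA-Ala, tRNA-Asn, tRNA-Cys and tRNA-Tyr on the minus strand (MT 5463 to 5845). tRNA-Asn was at 220, 255 and 255 CPM with vehicle and at 308, 2.88 and 313 CPM in gonadotropin. tRNA-Tyr was at 1461, 559 and 752 CPM with vehicle and at 702, 3.20 and 1575 CPM in gonadotropin. Outside gonadotropin 10 both were abundant in both groups. tRNA-Cys, which lies between these 2, was at 51.5 CPM in gonadotropin 10, within its range over the other libraries (41.6 to 96.2 CPM). tRNA-Trp, which also reads the codon that is a stop outside mitochondria, was at 125, 89.0 and 74.0 CPM with vehicle and at 63.0, 52.4 and 57.6 CPM in gonadotropin, with no overlap of the groups. tRNA-Ala split the libraries another way: it was at 26.6 and 28.4 CPM in vehicle 7 and 11, at 224 CPM in vehicle 9 and at 45.4 to 175 CPM in gonadotropin.

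Further along, tRNA-Asp (MT 7463 to 7530, plus strand) was at 88.0, 183 and 84.4 CPM with vehicle and at 61.8, 35.5 and 53.7 CPM in gonadotropin. tRNA-Arg (10396 to 10460, plus strand) was at 403, 346 and 318 CPM with vehicle and at 168, 222.8 and 153 CPM in gonadotropin. Neither showed overlap between the groups, and for tRNA-Arg gonadotropin 10 was the highest of its group. tRNA-Lys (8291 to 8355, plus strand), the tRNA that lies between the genes of cytochrome oxidase and ATP synthase subunits, was at 991, 1236 and 1013 CPM with vehicle and at 632, 2.24 and 993 CPM in gonadotropin. tRNA-Gly was highest in gonadotropin 10, at 303 CPM against 52.9 to 113 CPM elsewhere. tRNA-Ser(UCN) was low everywhere, at 10.9 to 30.9 CPM with vehicle and 11.8 to 20.1 CPM with gonadotropin.

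tRNA-His, tRNA-Ser(AGY) and tRNA-Leu(CUN) follow one another without a gap (MT 12129 to 12327, plus strand). tRNA-Ser(AGY), in the middle, was at 1433, 3109 and 1396 CPM with vehicle and at 2589, 3.52 and 1419 CPM in gonadotropin. tRNA-His, on one side of it, was at 771 CPM in gonadotropin 10, among its highest values (370 to 807 CPM elsewhere). tRNA-Leu(CUN), on the other side, was at 53.7 CPM there and at 85.01 to 191 CPM elsewhere. Adjacent genes of 1 precursor therefore lay high, nearly at 0 and mildly low in the same library.

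The last members were tRNA-Glu (63.2 to 105 CPM in vehicle, 12.1 to 93.1 CPM in gonadotropin), tRNA-Thr and tRNA-Pro. tRNA-Thr was low in both vehicle 9 (15.7 CPM) and gonadotropin 10 (6.07 CPM), and was at 90.04 to 229 CPM in the other libraries. tRNA-Pro was at 9.15, 11.9 and 9.60 CPM with vehicle and at 20.9 and 8.89 CPM in gonadotropin 8 and 12. It had 0 counts in gonadotropin 10, which allows up to 0.959 CPM (3 counts).

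A rule singled out genes whose lowest library lay 8 times or more below the median of the others and 4 times or more below the second lowest. By this rule 8 of the 24 members stood out, all in gonadotropin 10. They were tRNA-Phe, tRNA-Val, tRNA-Ile, tRNA-Asn, tRNA-Tyr, tRNA-Lys, tRNA-Ser(AGY) and tRNA-Pro. Among the 693 other tested small RNA genes, 0 met the rule in that library, so the share over all 717 tested genes was 1.12%. In the other libraries no member met it, and 0 to 3 other genes did. The distance to the median of the other libraries was 2107 times for tRNA-Val, 1064 times for tRNA-Phe, 444 times for tRNA-Lys, 407 times for tRNA-Ser(AGY), 235 times for tRNA-Tyr and 88.5 times for tRNA-Asn. Just inside the rule were tRNA-Ile (9.44 times under the median, 4.66 times under the next lowest) and tRNA-Pro (at least 10.0-fold lower than the median). Just outside were tRNA-Met (7.887 and 4.204 times), tRNA-Glu (7.658 and 5.201 times) and tRNA-Thr (22.3 and 2.58 times). These values describe 1 library and carry no test.

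The 8 genes were mixed in strand and length. They came from both strands (5 of 14 heavy-strand and 3 of 8 light-strand tRNA genes). They were 59 to 73 bases long, with a median of 69.0, and the other 14 tRNA genes were 63 to 75 bases long, with a median of 68.5. In the libraries other than gonadotropin 10, their median levels ran from 9.60 to 1433 CPM. The low ones were tRNA-Pro (9.60 CPM) and tRNA-Ile (21.1 CPM), which were just inside the rule. The rest, 88.5 to 2107 times under, were at 255 to 1433 CPM. Not all abundant tRNA genes were among the 8: tRNA-Gln was at 1681, tRNA-Leu(UUR) at 406 and tRNA-His at 403 CPM. Together the 8 genes made 54.3% to 66.5% of the mitochondrial counts in 5 libraries and 0.183% in gonadotropin 10, which is 49 counts. tRNA-Gln made 8.93% to 18.6% in 5 libraries and 75.8% in gonadotropin 10 (exact Clopper-Pearson 95% interval 75.3% to 76.3%). Without tRNA-Gln, mitochondrial genes made 0.204% of all counts in gonadotropin 10 and 0.717% to 1.502% in the others.

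**Figure D2:**
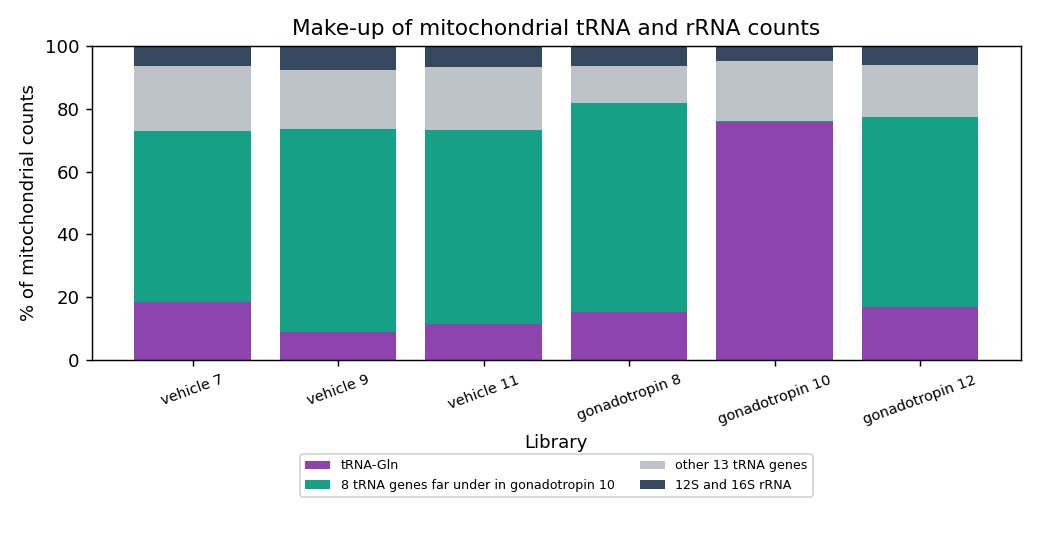
Make-up of the mitochondrial counts in each library, in percent of the counts of the 24 genes. The 8 tRNA genes that were far under in gonadotropin 10 made 54.3% to 66.5% in the other libraries and 0.183% there, where tRNA-Gln made 75.8%.

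Across the 22 tRNA genes, the profiles of log2 CPM (with 0.5 added to each CPM) correlated between libraries with Pearson's r of 0.82 to 0.97 in the 10 pairs without gonadotropin 10, and of 0.05 to 0.16 in the 5 pairs with it. Spearman's rho was 0.81 to 0.97 and -0.03 to 0.03. These are correlations across genes, which are not independent replicates and share a library. Over the 372 tested miRNA genes the same library was like the rest, with r of 0.97 to 0.99 in its 5 pairs and 0.96 to 0.99 in the other 10. The total count of gonadotropin 10 was the highest of the 6.

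Between the groups, no mitochondrial gene passed the edgeR quasi-likelihood test at an adjusted p under 0.05 (0 of 24, against 0.139% of all 717 tested genes, namely the snoRNA gene SNORD49). All 24 members passed the filter on low counts. An unadjusted p under 0.05 was found for 3 members, all with a lower value, where 1.95% of all tested genes had such a p in that direction, 2.51% in the other and 4.46% in either. Just above it was tRNA-Gln, with a higher value (unadjusted p = 0.051, edgeR quasi-likelihood test). By the same test its p was 0.021 with library totals, 0.085 with upper-quartile scaling and 0.35 without gonadotropin 10. It was 0.048 by the edgeR exact test and 0.052 by DESeq2. The count of members with an unadjusted p under 0.05 was 1 without gonadotropin 12 (tRNA-Gln, with a higher value) and also 1 without gonadotropin 10. In the latter case it was tRNA-Arg, and tRNA-Ile and tRNA-Asp no longer had such a p (0.073 and 0.075, edgeR quasi-likelihood test, unadjusted). DESeq2 and the edgeR exact test also called 0 members, and over 19 alternatives the lowest adjusted p of any member was 0.187. In the authors' deposited table of an edgeR exact test, the lowest adjusted p of the 24 was 0.676, for tRNA-Ile, so 0 were called there too. The unadjusted p of that exact test was 0.0087 for tRNA-Ile, 0.027 for tRNA-Asp, 0.042 for tRNA-Gln and 0.057 for tRNA-Arg.

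The log2 fold change was below 0 in 19 members and above 0 in 5, with a median of -0.35. Over all 717 genes the median was -0.02 and 51.9% lay below 0. Without gonadotropin 10, 14 members were below and 10 above 0, and the median was -0.16. Without gonadotropin 10 and vehicle 7 together, the latter having the lowest TMM factor (0.784), the median was -0.02, with 13 below and 11 above. Single libraries moved the median in both directions: it was -0.87 without gonadotropin 8 and -0.68 without gonadotropin 12.

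tRNA-Arg (ENSMMUG00000028679) had the smallest p. Its log2 value was -0.97 with an SE of 0.32 (adjusted p = 0.85, edgeR quasi-likelihood test), and all 3 gonadotropin libraries were lower. Its value was -1.15 (SE 0.37) without gonadotropin 10 and stayed between -1.15 and -0.83 in all 19 alternatives. tRNA-Asp (ENSMMUG00000028687) had -1.24 (SE 0.45), and -1.03 (SE 0.49) without gonadotropin 10. tRNA-Ile (ENSMMUG00000028698) had -1.89 (SE 0.72), and -1.43 (SE 0.68) without it. tRNA-Trp (ENSMMUG00000028694) had -0.74 (SE 0.36), and -0.68 (SE 0.44) without it. These 4 genes, with tRNA-Leu(UUR), were the 5 members whose groups did not overlap, all of them lower with gonadotropin and all on the heavy strand. tRNA-Leu(UUR) was apart by a small margin, 406 against 394 CPM, and had -0.62 (SE 0.56), and -0.18 (SE 0.35) without gonadotropin 10. Over all tested genes, 3.35% did not overlap in that direction, 4.88% in the other and 8.23% in either.

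tRNA-Gln (ENSMMUG00000028697) had a value of 1.26 (SE 0.55) on all 6 libraries, and 0.44 (SE 0.44) without gonadotropin 10. tRNA-Gly turned from 0.59 (SE 0.66) to -0.61 (SE 0.45) without that library. The 6 abundant members that were nearly missing in gonadotropin 10 had the widest errors: on all 6 libraries the SE was 1.62 for tRNA-Phe, 1.46 for tRNA-Val, 1.39 for tRNA-Ser(AGY), 1.34 for tRNA-Tyr, 1.30 for tRNA-Lys and 1.09 for tRNA-Asn. Without gonadotropin 10 their SE was 0.34 to 0.77, and their values were 1.103 for tRNA-Phe, -0.28 for tRNA-Val, 0.03 for tRNA-Ser(AGY), 0.29 for tRNA-Tyr, -0.41 for tRNA-Lys and 0.35 for tRNA-Asn. The rRNA genes were at -0.22 (SE 0.54; 12S) and -0.32 (SE 0.39; 16S), and at 0.11 and -0.09 without that library.

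**Figure D3:**
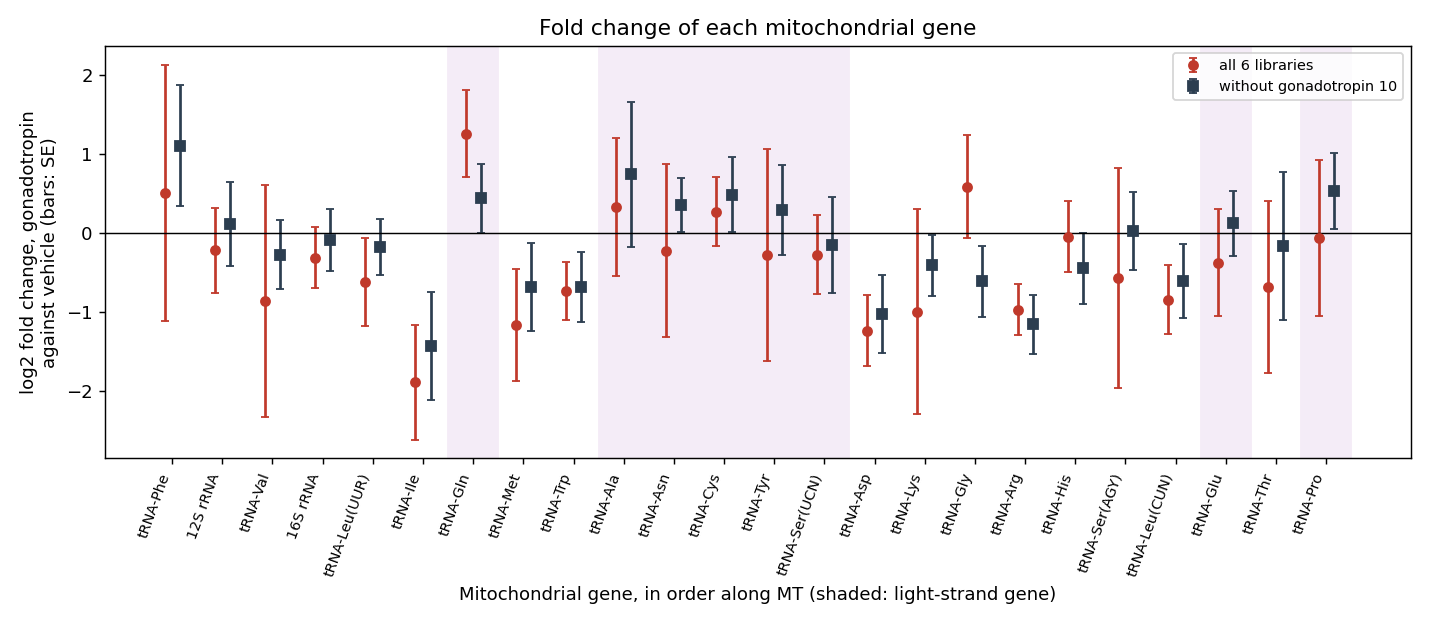
Log2 fold change of each member, gonadotropin against vehicle, with its SE, on all 6 libraries (circles) and without gonadotropin 10 (squares); shading marks genes of the light strand. The bars of tRNA-Phe, tRNA-Val, tRNA-Tyr, tRNA-Lys and tRNA-Ser(AGY) shrink without that library, and most unshaded genes lie below 0 in both fits.

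The members were also taken by strand, where the plus strand of the table holds the heavy-strand genes and the minus strand the light-strand genes. Of 14 tRNA genes of the heavy strand, 12 had a lower value with gonadotropin (median -0.79), both on all libraries and without gonadotropin 10 (median -0.53). Of 8 tRNA genes of the light strand, 5 had a lower value on all libraries (median -0.15) and 1 without gonadotropin 10 (median 0.40). The light-strand genes are tRNA-Gln, tRNA-Ala, tRNA-Asn, tRNA-Cys, tRNA-Tyr, tRNA-Ser(UCN), tRNA-Glu and tRNA-Pro. The 5 members without overlap, which include the 3 with an unadjusted p under 0.05, were all heavy-strand genes, as were 14 of the 22 tRNA genes. The light-strand tRNA-Gln was just above that limit (unadjusted p = 0.051, edgeR quasi-likelihood test).

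Within each library, the mean log2 CPM of the light-strand tRNA genes minus that of the heavy-strand tRNA genes was -1.30, -1.19 and -1.39 in vehicle 7, 9 and 11 and -0.56, -0.05 and -0.32 in gonadotropin 8, 10 and 12. Such a difference within a library does not depend on scaling between libraries, apart from the constant of 0.5 added to each CPM. All gonadotropin libraries lay above all vehicle libraries. The group means were -1.29 ± 0.10 and -0.31 ± 0.25 (SD, n = 3 each), a difference of 0.98 on the log2 scale (exact two-sided permutation test, p = 0.1, the smallest it can give). Without gonadotropin 10 the difference was 0.85, and over all libraries left out in turn it ran from 0.85 to 1.11. Over the 14 tRNA genes that were not far under in gonadotropin 10 (9 heavy, 5 light), the values were -0.91, -0.33 and -1.10 in vehicle and 0.28, 0.20 and 0.21 in gonadotropin. This last set was chosen after its values were seen and is a description.

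The same balance taken on summed counts, the measure set out as the main one, did not separate the groups. The ratio of light-strand to heavy-strand counts was 0.61, 0.237 and 0.36 in vehicle and 0.353, 4.30 and 0.706 in gonadotropin, a difference of 1.45 on the log2 scale (exact two-sided permutation test, p = 0.3), and of 0.42 without gonadotropin 10. Sums are ruled by the few abundant genes: without tRNA-Gln the difference was -0.19 (exact permutation test, p = 0.8). The ratio without tRNA-Gln was 0.289, 0.117 and 0.192 in vehicle. It was 0.134, 0.082 and 0.401 in gonadotropin, where gonadotropin 10 was the lowest of all 6 libraries. On the mean log2 CPM without tRNA-Gln, vehicle was at -1.90, -1.67 and -1.91 and gonadotropin at -1.12, -1.26 and -0.84. There the groups did not overlap, and this was not tested. Neither the mean log2 version nor the summed version passed a test.

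**Figure D4:**
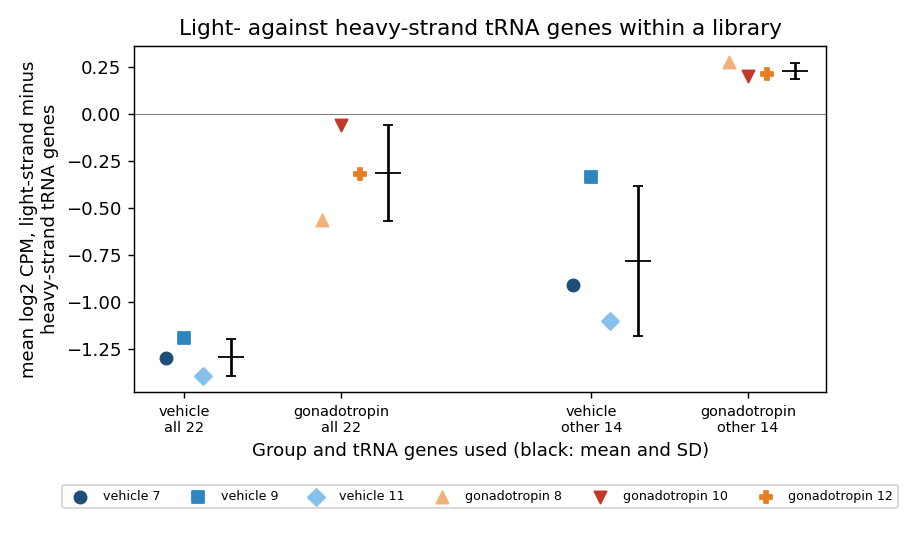
Mean log2 CPM of light-strand minus heavy-strand tRNA genes in each library, over all 22 tRNA genes (left) and over the 14 that were not far under in gonadotropin 10 (right); markers are libraries, and black lines are means with SD. The gonadotropin libraries lie above the vehicle libraries in both sets, at -0.56 to -0.05 against -1.39 to -1.19 on the left.

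The ratio of mitochondrial tRNA to rRNA counts was 14.3, 11.97 and 13.9 in vehicle and 14.7, 20.2 and 15.1 in gonadotropin. All gonadotropin libraries were above all vehicle libraries, by a mean of 0.31 on the log2 scale (exact two-sided permutation test, p = 0.1, the smallest possible), and by 0.16 without gonadotropin 10. The value of 20.2 in gonadotropin 10 rested on tRNA-Gln, which held 20306 of its 25522 tRNA counts. Without tRNA-Gln that library had 6481 mitochondrial counts, 1265 of them rRNA. Gonadotropin 8 had 32249 and 2417, and gonadotropin 12 had 21599 and 1609. Vehicle 7 had 21009 and 1687, vehicle 9 had 38293 and 3243, and vehicle 11 had 19504 and 1478. Without tRNA-Gln the ratio of tRNA to rRNA was thus lowest in gonadotropin 10, and the groups overlapped. The ratio without tRNA-Gln was not tested. With genes weighed equally the difference was -0.82 (exact permutation test, p = 0.4) and the groups overlapped. On that scale, mean log2 CPM of tRNA minus rRNA genes, vehicle ran from -1.33 to -0.70. Gonadotropin ran from -3.22, in gonadotropin 10, to -0.85, and its other libraries lay within the vehicle range. Over the 9 versions of these shares and ratios that were tested, the lowest Benjamini-Hochberg adjusted p of the exact permutation tests was 0.45. Over the 3 main measures alone it was 0.30. As no exact p could fall under 0.1, no adjusted p could reach 0.05, so these adjusted values decide nothing.

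Nuclear RNAs of related machinery showed no called change by the edgeR quasi-likelihood test. RNase MRP RNA and nuclear RNase P RNA, whose enzymes process rRNA and tRNA precursors of the nucleus, had values of 0.09 (SE 0.73) and 0.08 (SE 0.38). A further copy of RNase MRP was too low to test. Of 294 nuclear rRNA genes, which are 5S and 5.8S copies that may share reads, 4 could be tested, 3 with a higher and 1 with a lower value and 0 called. Of 7 tested miRNA genes tied to mitochondria in earlier work, 3 had a higher and 4 a lower value and 0 were called. The higher ones include mir-1-1 and MIR1-2, which had similar levels (12.8 to 19.7 and 11.2 to 19.3 CPM) and may share reads. Among the 7, mir-181c, which has been linked to a mitochondrial oxidase subunit, was at 746, 530 and 558 CPM with vehicle and at 409, 474 and 406 CPM in gonadotropin (log2 fold change -0.51, SE 0.32, adjusted p = 0.998, edgeR quasi-likelihood test). It was the only 1 of the 7 whose groups did not overlap. Over all tested genes that share was 8.23%, and over miRNA genes it was 37 of 372.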

How the data were processed

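The authors deposited raw counts per annotated small RNA gene, made with HTSeq on rheMac8 per the labels. Tools named in the submitters' processing notes are HTSeq 0.6.1p1, Bowtie 1.1.2, edgeR and cutadapt 1.9.1. The strand setting, the mismatches allowed and the treatment of reads with several matches were, in the sources used here, not given, so reads from nuclear copies of mitochondrial DNA or from the opposite strand could not be told apart. The labels name Ion Torrent in the titles and Illumina steps in the extraction protocol. The authors also deposited log2 fold changes, p-values and CPM of an edgeR exact test, whose CPM columns sum to 1000000.

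Here the counts of 3083 genes were filtered with filterByExpr (minimum count 10), scaled by TMM and tested, gonadotropin against vehicle, in edgeR 4.0.16 (R 4.3.3) by its robust quasi-likelihood test, with Benjamini-Hochberg adjustment over the 717 genes kept and a threshold of 0.05. The SE was taken from the F statistic (size of the log2 value over the root of F). The biological coefficient of variation was 46.2%. Alternatives used DESeq2 1.42.0, limma 3.58.1 and other scalings, filters, covariates and library sets. The script was tested on simulated counts. No 2 libraries were identical, and each is 1 animal. Members given in every library were both rRNA genes, the 5 with the highest mean CPM, the 5 with the smallest p and those far under in 1 library. The genes and lists were chosen with earlier results of these data known. Counts are reads, not molecules.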

Additional observations from a re-analysis of the deposited data

How the results depend on the processing

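No mitochondrial gene was called under any of 19 alternatives. The median log2 fold change of the 24 genes stayed below 0, from -0.91 with limma voom to -0.02 without gonadotropin 10 and vehicle 7 together (a setting added after seeing the data), and was -0.77 with pairs of animals by age and -0.87 to -0.16 without 1 library. Library totals in place of TMM moved the median of all genes from -0.02 to 0.09 and that of the 24 genes to -0.19, so their distance changed little. Over all small RNA genes 3 were called with no filter on low counts, with DESeq2 and with the edgeR exact test, and 0 with limma voom and with pairs by age; without 1 library 0 to 1 were called. No paired analysis by replicate number was possible because the groups share no number; the pairs by age are the nearest animals in age (24 with 22 months in the oldest).

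The log2 difference in the share of counts was -0.55 with tRNA-Gln left out (added after seeing the data) and -0.21 to 0.36 without 1 library. With tRNA-Gln left out, the share in gonadotropin 10 was far under that of every other library. Gonadotropin 8 then had the highest share of all libraries, and gonadotropin 12 lay within the vehicle range. The difference with both tRNA-Gln and gonadotropin 10 left out was not tested. The tRNA to rRNA difference was -0.82 on mean log2 CPM, and the light to heavy difference -0.19 with tRNA-Gln left out of the sum.

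Single genes changed sign, and the cause was not tested. tRNA-Pro was at 0.12 with library totals and at 0.12 with scaling to miRNA counts, and tRNA-His at 0.017 with library totals, 0.022 with upper-quartile scaling and 0.0023 with scaling to miRNA counts. tRNA-Phe was at -2.70 with limma voom, -0.19 when age was a covariate and -0.10 in pairs by age. Without 1 library tRNA-Phe ran from -1.27 to 1.34, tRNA-Pro from -1.23 to 0.53, tRNA-His from -0.45 to 0.29, tRNA-Thr from -1.40 to 0.059, tRNA-Ser(UCN) from -0.64 to 0.36, tRNA-Tyr from -1.41 to 0.29, tRNA-Ala from -0.077 to 2.02, tRNA-Asn from -0.65 to 0.35, tRNA-Glu from -0.71 to 0.12, tRNA-Gly from -0.61 to 0.99, tRNA-Ser(AGY) from -1.47 to 0.026 and the 12S rRNA from -0.85 to 0.17. The number of animals, 3 a group, limits every comparison.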
